A study of Homo sapiens with 15 samples.

Results

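The mitochondrial ribosomal protein genes were followed in xenograft tumours grown from A549, an established cell line of human lung adenocarcinoma. The genes were taken by name, as all human protein-coding entries of the deposited count table with a symbol of MRPL or MRPS and a number, and 80 pseudogene entries with such a stem were left out. This gave 78 genes, 49 named MRPL and 29 named MRPS, of 19861 human protein-coding genes in a table of 60649 human and 56941 mouse genes. RNA came from 15 subcutaneous tumours of BALB/c nude mice, which lack a thymus and so mature T cells. In the stress group (n = 5) the labels place restraint 7 days before the A549 cells were injected, and in the post-stress group (n = 5) 12 days after it. The mice of the no-stress group (n = 5) were not restrained. By the labels, all 15 tumours came from the same cell line. The labels do not say whether the numbers of days are a starting day or a duration.

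Mitochondria carry ribosomes of their own, which translate the few messenger RNAs that the mitochondrial genome encodes, all for subunits of the respiratory chain and ATP synthase. The ribosomal RNAs of these particles are made inside the organelle. Their proteins are encoded in the nucleus, made on cytosolic ribosomes and imported, so the MRPL genes (large subunit) and MRPS genes (small subunit) are nuclear genes scattered over the chromosomes. Some of the proteins have homologues in bacterial ribosomes and others exist only in mitochondria. Of the 78 genes, 51 encode proteins of the large subunit, 30 of them with a bacterial homologue and 21 specific to mitochondria, and 26 encode proteins of the small subunit, 16 and 10 of these kinds. MRPS18A and MRPS30 carry small-subunit names but sit in the large subunit, and MRPS36 is a component of the 2-oxoglutarate dehydrogenase complex that kept its name.

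Each library held between 16729091 and 19680449 counts, of which 12877165 to 15892705 fell on human genes. Levels are given as CPM, the gene's count scaled to a common total of human counts in the library, and levels of different genes are set against each other only after division by exon length (CPM per kb). The mouse share of counts was 18.6 to 24.6% in stress tumours (median 20.8%), 12.4 to 23.0% in post-stress tumours (median 15.4%) and 15.6 to 30.2% in no-stress tumours (median 20.5%). In bulk tumour RNA, fewer cells of a type and less RNA per cell cannot be told apart. Of 9 epithelial and A549 marker genes, 8 had a median of at least 50 CPM, while KRT19 stayed under 1 CPM in every library. CDKN2A, deleted in A549, was at 0 in 13 libraries but had 2.05 CPM in stress replicate 4 and 0.329 CPM in post-stress replicate 3. The source of these counts was not tested. Of 20 human leukocyte and stroma markers, 9 stayed under 1 CPM in every library, C1QA and C1QB among them at 0 throughout, and 1 had a median of at least 50 CPM. No-stress replicates 1 and 2 stood apart from the other 13 libraries in MRPL23, and no-stress replicates 1 and 5 had the highest mouse shares, so counts of changed genes are also given without either pair.

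The 78 genes lay on 21 chromosomes. A protein-coding gene on the opposite strand started within 500 bases of the start of 23 of them (29.5%), against 10.5% of all human protein-coding genes. MRPL46 and MRPS11 start head to head with each other, and MRPL36 and MRPL47 start beside NDUFS6 and NDUFB5, which encode subunits of respiratory complex I. Among genes that passed the filter on low counts, the shares were 30.1% of 73 members and 13.7% of 12566 protein-coding genes.

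RefSeq promoter windows (GRCh38.p14, 250 bases before to 50 after the start) matched 69 of the 78 genes. Of these, 30 (43.5%) held the ETS-type letters CCGGAAG on either strand, against 16.5% of 15843 protein-coding genes with a window, and 24 (34.8%) held the YY1-type letters ATGGCGG, against 9.15%. The shares lay closer together for the NRF1 motif (9 of 69 members, against 9.67% of coding genes), the E-box CACGTG (9 of 69 members, against 10.9%) and the SP1-type GGGCGG (60.9% of members, against 64.3%). ETS factors, a family that includes GABPA, together with NRF1 and YY1, are known as activators of nuclear genes for mitochondria. Motifs were counted without regard to partial overlap between them, and a match of letters is a description of the window and not a measured binding site. The coding genes compared were not limited to those that passed the filter on low counts. Matches past the start, such as the YY1 match of MRPS34 below, lie in transcribed sequence. The following stretches run from 150 bases before to 30 bases past the start, 5′ to 3′ on the gene's strand, and belong to the gene with the highest level per length and to 4 of the 5 genes lower in stress tumours, to show how their promoters compare. They lie at chr16:1773105-1773284 (minus strand, MRPS34), chr1:156741059-156741238 (minus, MRPL24), chr17:81703217-81703396 (plus, MRPL12), chr19:10251801-10251980 (plus, MRPL4) and chr10:73252615-73252794 (minus, MRPS16) of GRCh38.p14. Capitals mark ETS, YY1 and ZNF143-type letters.
MRPS34: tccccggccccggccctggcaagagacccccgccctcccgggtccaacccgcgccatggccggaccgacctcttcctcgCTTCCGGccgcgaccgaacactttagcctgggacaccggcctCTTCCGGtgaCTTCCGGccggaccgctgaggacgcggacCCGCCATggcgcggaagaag
MRPL24: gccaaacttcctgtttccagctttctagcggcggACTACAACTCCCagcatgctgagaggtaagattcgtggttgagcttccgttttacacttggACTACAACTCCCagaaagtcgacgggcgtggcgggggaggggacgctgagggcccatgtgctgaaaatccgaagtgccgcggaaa
MRPL12: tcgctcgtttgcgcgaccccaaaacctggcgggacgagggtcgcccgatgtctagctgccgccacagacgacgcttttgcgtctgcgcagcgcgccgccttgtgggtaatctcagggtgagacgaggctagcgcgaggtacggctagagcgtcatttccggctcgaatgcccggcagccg
MRPL4: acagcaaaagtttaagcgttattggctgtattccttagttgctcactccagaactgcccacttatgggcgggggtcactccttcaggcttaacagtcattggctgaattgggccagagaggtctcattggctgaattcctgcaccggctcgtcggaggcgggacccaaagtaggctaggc
MRPS16: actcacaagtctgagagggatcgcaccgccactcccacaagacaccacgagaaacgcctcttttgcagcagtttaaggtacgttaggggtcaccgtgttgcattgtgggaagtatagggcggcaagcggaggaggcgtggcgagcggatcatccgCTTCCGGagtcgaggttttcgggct
The MRPS34 stretch holds 3 ETS matches and 1 YY1 match, and that of MRPS16 a single ETS match just past the start. The MRPL24 stretch has neither but carries 2 copies of the ZNF143 motif, which was searched for after it had been seen in this window. It occurs in 2 of 69 members (2.90%, MRPL24 and MRPL50) and in 1.72% of coding genes. The windows of MRPL12 and MRPL4 hold none of the NRF1, ETS, YY1, E-box and ZNF143 letters.

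Of the 78 genes, 73 passed the filter on low counts. Of all 78, 33 averaged at least 50 CPM over the 15 libraries, 35 averaged 10 to 50, 5 averaged 1 to 10 and 5 averaged under 1. Per kb of exon the highest was MRPS34, a small-subunit protein specific to mitochondria, at 75.5 CPM per kb. It was followed by MRPS35 (69.1), MRPL41 (59.4), MRPS16 (55.2) and MRPL51 (55.1), and the median of the 78 was 16.2. MRPS34 ranged from 65.3 to 90.6 CPM per kb over the libraries and MRPS35 from 61.4 to 77.7, so these neighbours in the order overlapped. The genes for proteins of a single particle thus spanned a wide range of measured mRNA levels, as the plot of levels per length shows. Exon length here merges all annotated exons of a gene and can exceed that of the expressed transcript, so the order depends on the annotation too.

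**Figure D1:**
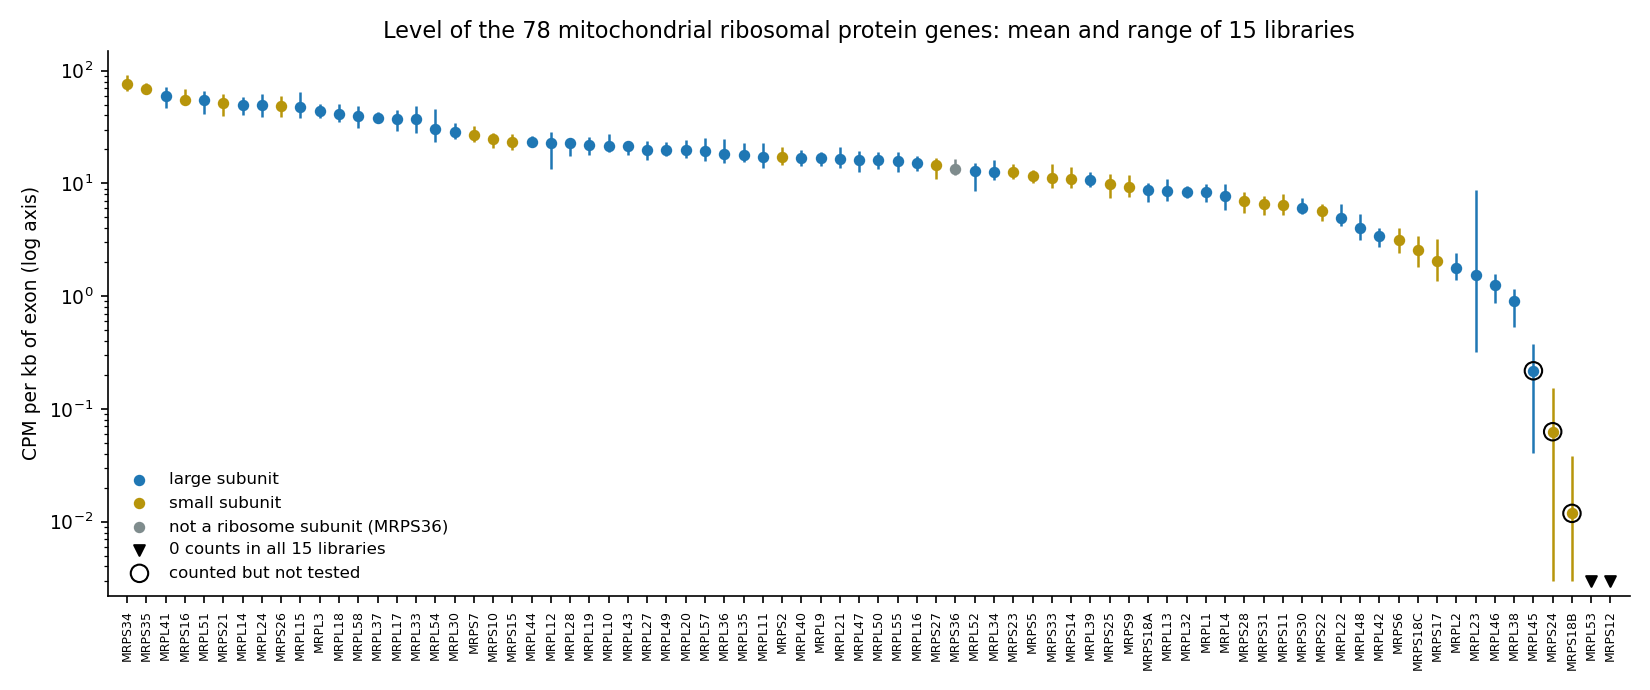
Level of each of the 78 genes as CPM per kb of exon (log axis), ordered from high to low; points are the mean and lines the range of 15 libraries, blue for large-subunit, ochre for small-subunit genes and grey for MRPS36. Triangles mark MRPL53 and MRPS12, with 0 counts in all 15 libraries, circles the 3 counted genes that were not tested, and lines that end at the level of the triangles reach libraries with 0 counts; levels fall from 75.5 CPM per kb (MRPS34) to 0.0118 (MRPS18B) before the genes at 0.

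The 5 lowest entries did not pass the filter on low counts and have no test. MRPL53 and MRPS12 had 0 counts in all 15 libraries, which allows up to 0.189 CPM in the deepest and 0.233 CPM in the shallowest library (3 counts). MRPS18B had 5 counts over all libraries, MRPS24 35 and MRPL45 80. Several of these entries share sequence with others: 45.2% of the exon bases of MRPL53 lie in CCDC142, 16.3% of those of MRPS12 in SARS2 and 23.2% of those of MRPS24 in URGCP-MRPS24. MRPS18B shares none but lies in the MHC region of chromosome 6, where 121 of 142 protein-coding genes stayed under 1 CPM in every library. The same share over all protein-coding genes is not given here. By another measure, 12566 of all 19861 passed the filter on low counts. Any part of the region in the level of MRPS18B was not tested. MRPL45 also shares none, and its pseudogene MRPL45P2 averaged 9.53 CPM, against 0.371 CPM for MRPL45 itself. Across all members, the 10 with at least 25% of their exon bases shared had a median of 7.83 CPM per kb, and the 68 others 16.3. How shared reads were assigned is not given in the sources used here, and its part in these levels was not tested. The 80 pseudogene entries summed to 12.0 CPM, against 3571 CPM for the 78 genes, and 36 of the genes have at least 1 such entry.

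Within a group, the genes varied between tumours about as much as other genes of at least 10 CPM. The median coefficient of variation of the 73 tested members was 10.1%, against 15.3% for all tested human genes and 10.9% for the 9450 tested human genes with a mean of at least 10 CPM. The lowest was that of MRPL37 (5.16%) and the highest that of MRPL23 (70.2%), with the next at 19.8%.

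In stress tumours, 5 of the 73 tested genes were lower than in no-stress tumours and none was higher (adjusted p under 0.05, edgeR's quasi-likelihood test over 15435 human genes). All 5 encode proteins with a bacterial homologue: MRPL24, MRPL12 and MRPL4 of the large subunit, MRPS28 and MRPS16 of the small subunit. The changes were modest, with log2 fold changes from -0.47 to -0.23. This is 6.85% of the members called lower, against 5.22% of all tested human genes called lower, 5.23% called higher and 10.5% called in either direction, so the share of lower calls was close to that of all genes. At an unadjusted p under 0.05, 15 members were lower and 0 higher, against 13.2% and 12.9% of all tested genes. Without no-stress replicates 1 and 2, and likewise without no-stress replicates 1 and 5, MRPL24 was the only one of the 73 called. Over all human genes, 203 were then higher and 127 lower without 1 and 2, and 295 higher and 251 lower without 1 and 5, against 807 and 806 with all libraries.

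MRPL24, whose bacterial homologue starts the assembly of the large subunit, had 71.2, 65.6, 66.4, 69.6 and 77.5 CPM in the stress tumours, against 94.9, 82.04, 91.9, 105 and 89.9 CPM in the no-stress tumours. Every stress tumour lay below every no-stress tumour (log2 fold change -0.37, SE 0.08, adjusted p = 0.0118 by edgeR). The gene (ENSG00000143314.12) lies on the minus strand at chr1:156737303-156741590 (GRCh38, GENCODE 29) and shares no exon base with another gene. It was called in all 15 fits that left out a single library.

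MRPL12, the protein of the flexible stalk on which elongation factors dock, had 23.4, 13.8, 19.01, 19.8 and 21.1 CPM in stress tumours and 27.4, 28.04, 26.4, 29.5 and 26.4 CPM in no-stress tumours. The groups did not overlap, and the lowest value was that of stress replicate 2 (log2 fold change -0.47, SE 0.12, adjusted p = 0.0161 by edgeR). MRPL12 (ENSG00000262814.8) lies on the plus strand at chr17:81703357-81707526, and 68.2% of its exon bases are shared with a gene named only by its clone, so its level is uncertain. It kept its call in all 15 fits without a library but lost it without no-stress replicates 1 and 2 (adjusted p = 0.0798) and without 1 and 5 (adjusted p = 0.0559, edgeR).

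MRPL4, related to a bacterial protein that lines the exit tunnel of the nascent peptide, had 29.1, 23.7, 24.9, 26.8 and 32.5 CPM in stress tumours and 40.02, 36.9, 35.4, 31.8 and 36.9 CPM in no-stress tumours. Stress replicate 5 lay above no-stress replicate 4, and the other 4 stress tumours lay below every no-stress tumour (log2 fold change -0.37, SE 0.09, adjusted p = 0.0210 by edgeR). The gene (ENSG00000105364.14) lies on the plus strand at chr19:10251901-10260045. Leaving out stress replicate 2, stress replicate 3 or no-stress replicate 1 ended its call.

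Of the small subunit, MRPS28, related to the bacterial ribosomal protein that holds messenger RNA, had 11.6, 10.6, 9.87, 10.2 and 11.4 CPM in stress tumours and 15.4, 14.1, 14.8, 15.1 and 14.5 CPM in no-stress tumours, with no overlap (log2 fold change -0.43, SE 0.11, adjusted p = 0.0265 by edgeR). It lies on the minus strand at chr8:79918717-80030289 (ENSG00000147586.10), and 35.8% of its exon bases are shared with another gene. MRPS16, a protein conserved from bacteria whose mutation in humans causes a respiratory chain disease, had 141, 138, 137, 144 and 142 CPM in stress tumours and 191, 159, 181, 148 and 163 CPM in no-stress tumours. The stress tumours lay between 137 and 144 CPM, all below the no-stress tumours, which were spread widely (log2 fold change -0.23, SE 0.07, adjusted p = 0.0485 by edgeR). MRPS16 (ENSG00000182180.14, minus strand, chr10:73248843-73252693) is the weakest of the 5 calls: it was lost in 12 of the 15 fits without a library, and MRPS28 in 5 of 15.

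**Figure D2:**
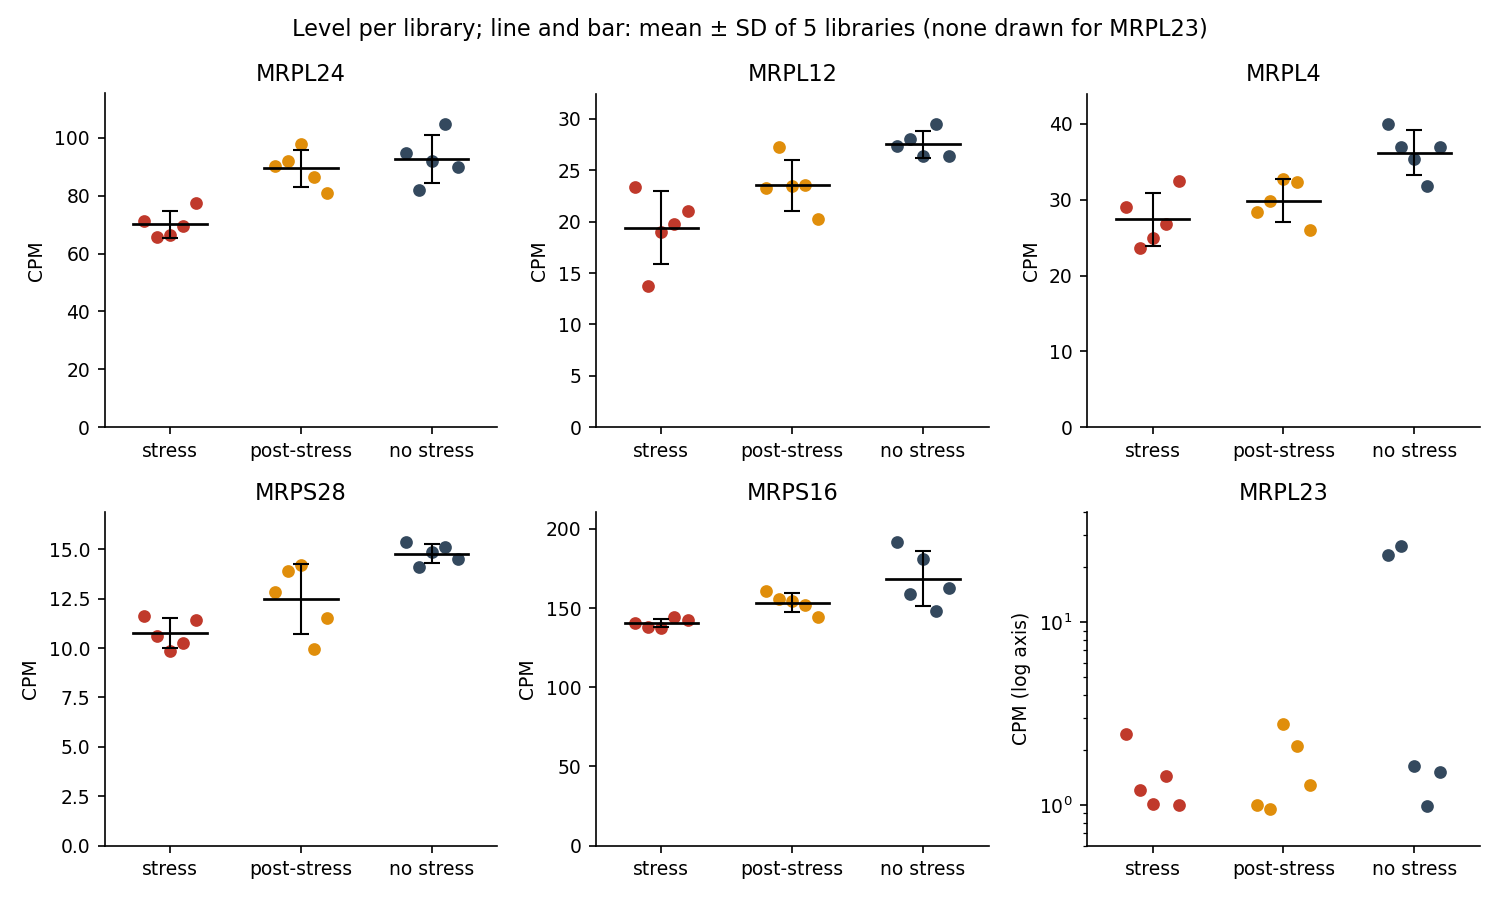
CPM per library (each point 1 tumour, 5 a group) of the 5 genes called lower in stress against no-stress tumours and of MRPL23, with mean and SD as line and bar; axes start at 0 except for MRPL23, which has a log axis and no mean. The mean of stress tumours is the lowest of the 3 groups for the 5 genes, MRPS16 lies within 137 to 144 CPM in stress tumours, and MRPL23 reaches 23.2 and 26.2 CPM in 2 no-stress tumours against at most 2.76 CPM elsewhere.

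Beyond the calls, 9 of the 73 members had every stress tumour below every no-stress tumour and none had the reverse order. This was 5.8% of all tested genes in the first direction and 3.49% in the second. The 9 were MRPL24, MRPL12, MRPS28 and MRPS16, and, without a call, MRPS25, MRPS2, MRPS9, MRPL20 and MRPL37. On TMM-scaled CPM, 8 members had this order (4.73% of all tested genes) and none the reverse (4.09%): MRPS9 and MRPL20 then overlapped and MRPL4 did not. MRPS25, a small-subunit protein specific to mitochondria, averaged 46.9 ± 4.73 CPM in stress tumours and 58.5 ± 3.93 CPM in no-stress tumours (SD, n = 5 each; log2 fold change -0.29, SE 0.09, adjusted p = 0.0611 by edgeR). MRPS2, a protein of the small subunit with a bacterial homologue, averaged 37.1 ± 1.44 CPM in stress tumours and 45.02 ± 3.52 CPM in no-stress tumours (SD, n = 5 each; log2 fold change -0.25, SE 0.09, adjusted p = 0.0808 by edgeR).

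Over the whole family, the fold changes lay slightly below 0. Of the 73 members, 55 (75.3%) had a log2 fold change below 0, against 51.1% of all tested human genes, and their median was -0.08, against -0.01 for all genes. The members moved together between tumours of a group, with 11 to 62 of 73 below their own median in single post-stress tumours. They are therefore not separate observations, and the shift of the family was not tested. Leaving out single libraries kept the members' median between -0.11 and -0.06, and it was -0.12 when library totals replaced the TMM factors. The small-subunit genes had a median of -0.16 (18 of 23 below 0) and the large-subunit genes -0.07 (37 of 49 below 0). Among the 44 tested genes with a bacterial homologue 36 were below 0 and 5 called, and among the 28 specific to mitochondria 19 were below 0 and none called. That last count changed with the method: DESeq2's Wald test called 2 of the 28, MRPS25 and MRPS34, and library totals without TMM factors called 3 (MRPS25, MRPS34 and MRPL51). At the upper end, none of the 18 members with a fold change above 0 passed the test. MRPL17 averaged 89.2 ± 10.3 CPM in stress tumours and 82.3 ± 5.28 CPM in no-stress tumours (log2 fold change 0.15, SE 0.11, adjusted p = 0.414 by edgeR), and the others of the 4 with the smallest p in this direction were MRPL22 (0.12), MRPS30 (0.09) and MRPL18 (0.09).

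**Figure D3:**
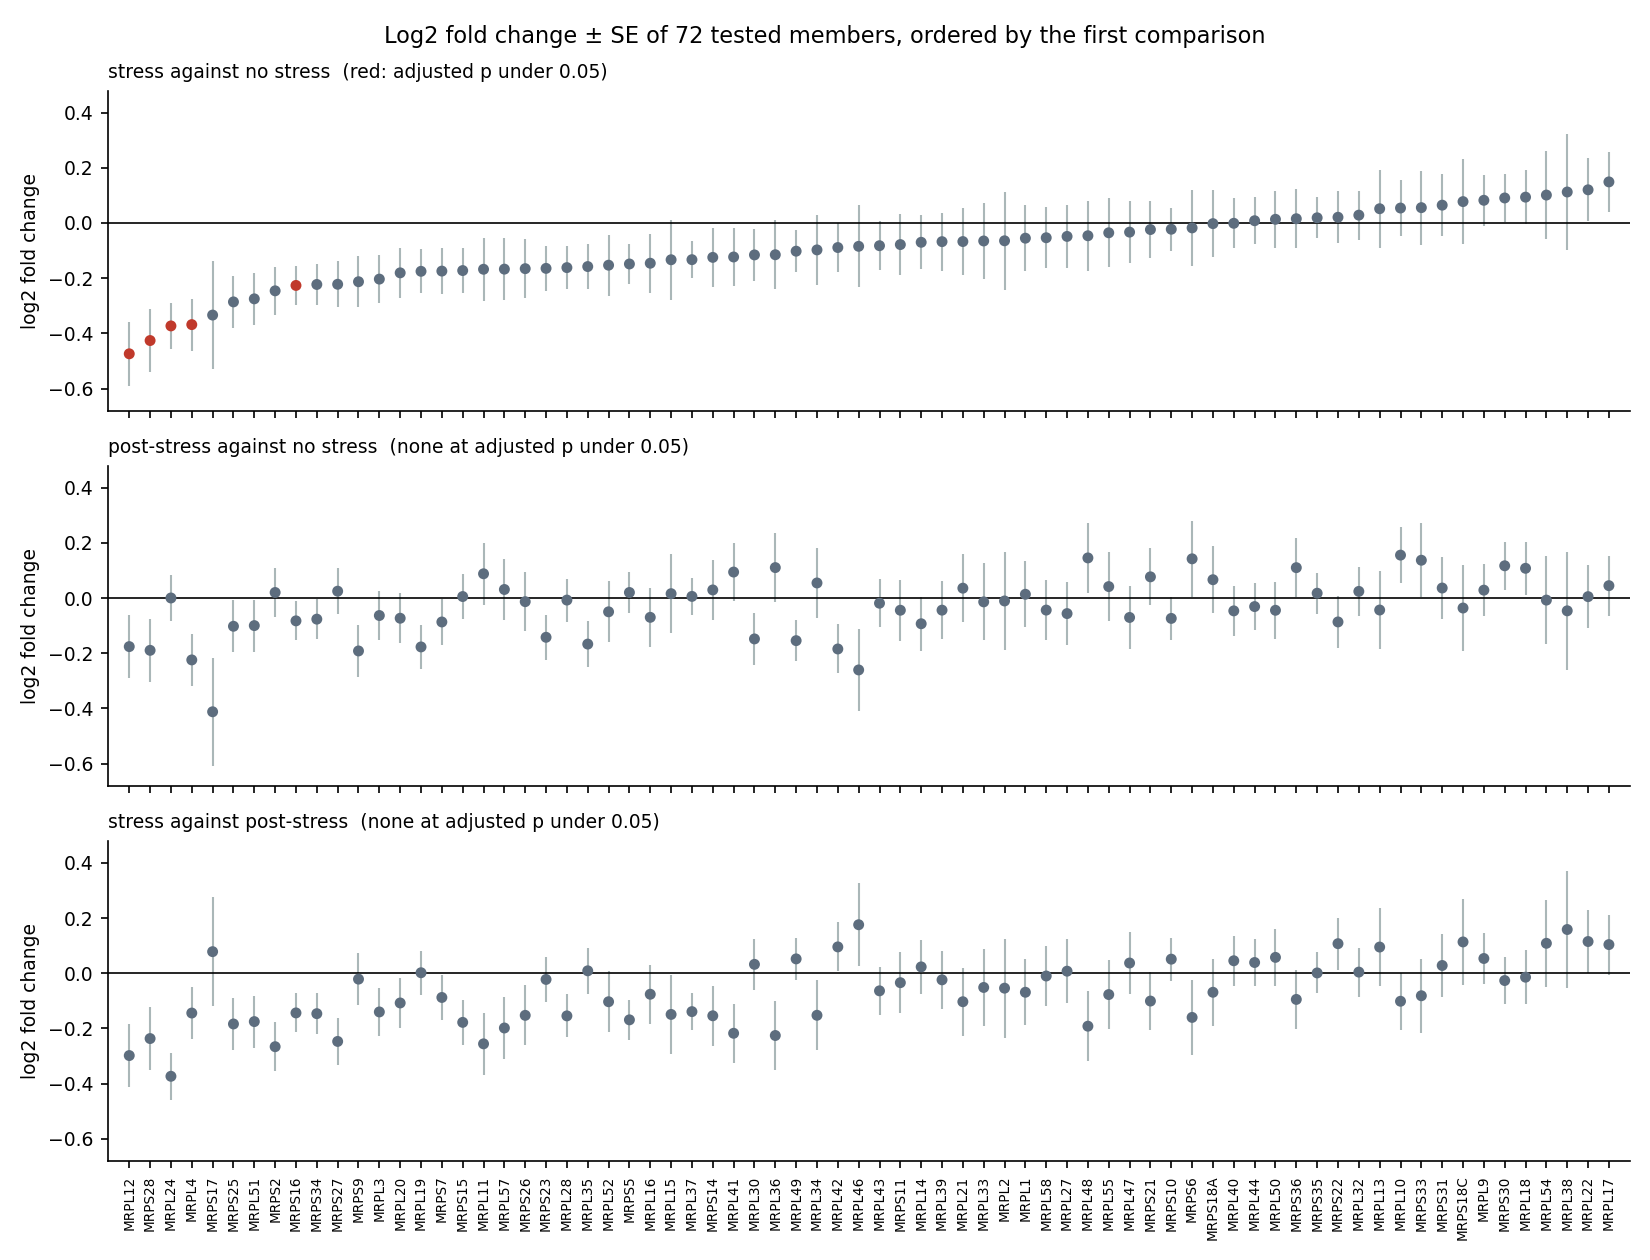
Log2 fold change with SE of 72 tested members in the 3 comparisons, in the order of stress against no stress (top); MRPL23, at -2.86, -2.64 and -0.21, is off the scale and not drawn. Red points are the 5 genes with an adjusted p under 0.05 in the first comparison; the other panels have none, and MRPL24 lies near 0 in post-stress against no stress.

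The summed level of the 78 genes was 3603, 3264, 3362, 3257 and 3512 CPM in the stress tumours. It was 3482, 3669, 3928, 3410.5 and 3256 CPM in the post-stress tumours and 4026, 3612, 3729, 3856 and 3601 CPM in the no-stress tumours. The means were 3400 ± 153 CPM in stress, 3549 ± 258 CPM in post-stress and 3765 ± 179 CPM in no-stress tumours (SD, n = 5 each), and stress replicate 1 and post-stress replicates 2 and 3 reached the range of the no-stress group. The family thus took 0.340% of human counts in stress, 0.355% in post-stress and 0.376% in no-stress tumours. The large subunit summed to 2036 to 2314 CPM in stress, 2027 to 2471 CPM in post-stress and 2256 to 2537 CPM in no-stress tumours, which overlap. The small subunit summed to 1191 to 1267 CPM in stress, 1212 to 1432 CPM in post-stress and 1321 to 1470 CPM in no-stress tumours, so that stress and no-stress tumours did not overlap on this scale. With TMM-scaled library sizes the small-subunit sums were 1188 to 1285 CPM in stress and 1273 to 1416 CPM in no-stress tumours, which overlap. The mean of the summed level in stress tumours differed from that in no-stress tumours by -9.69% over human counts, by -7.58% with TMM-scaled library sizes and by -10.5% without the mitochondrial genome's own genes in the denominator.

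The libraries of a group did not move as one. Counting, for each library, the tested members below their own median over the 15 libraries gave 27, 55, 47, 61 and 29 of 73 in the stress tumours, 41, 26, 11, 48 and 62 in the post-stress tumours and 8, 30, 21, 13 and 32 in the no-stress tumours. Stress replicates 1 and 5 thus lay within the no-stress range and stress replicates 2, 3 and 4 above it, and the post-stress tumours covered nearly the whole range. Over all tested human genes the same share was between 35.7 and 60.6% of genes in every library. In post-stress replicate 3 it was 60.6% of all genes but 15.1% of the members.

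**Figure D4:**
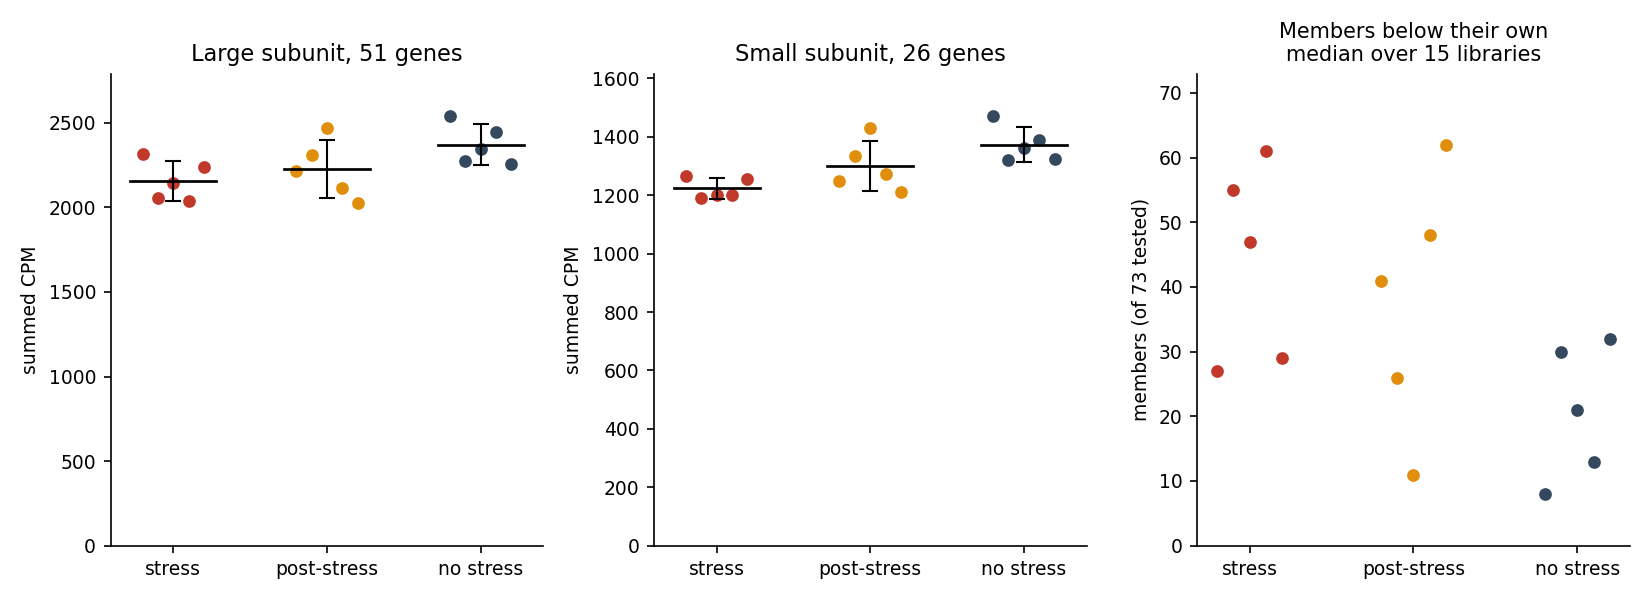
Summed CPM per library of the large-subunit genes (left, 51 genes) and small-subunit genes (middle, 26 genes), with mean and SD of 5 tumours, and the number of the 73 tested members below their own median over the 15 libraries (right). The small-subunit sums of stress tumours (1191 to 1267 CPM) lie below those of no-stress tumours (1321 to 1470 CPM), which they overlap once TMM-scaled; on the right, post-stress tumours run from 11 to 62 members.

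Values of human marker genes beside this comparison were as follows. The host cells are of mouse, so the human leukocyte and stroma entries do not measure host cells. Their sum averaged 164 CPM in stress and 168 CPM in no-stress tumours, of which COL1A1 alone made 106 and 123 CPM. The summed level of the 20 human leukocyte and stroma markers was 136 to 195 CPM in stress and 124 to 233 CPM in no-stress tumours, and none of the 10 that could be tested was called (edgeR; 1 higher and 0 lower at an unadjusted p under 0.05, and none by DESeq2). The 9 epithelial and A549 markers summed to 15296 to 17364 CPM in stress and 16398 to 22284 CPM in no-stress tumours, and 1 of 8 tested, ALDH3A1, was lower (log2 fold change -0.53, SE 0.16, adjusted p = 0.0440 by edgeR). At an unadjusted p under 0.05, 5 of the 8 were lower and 1 higher, their median log2 fold change was -0.30, and DESeq2 called 3 lower (ALDH1A1, ALDH3A1 and GPX2). Their part in the result was not tested. With the mouse share as a covariate, MRPL12, MRPL24, MRPL4 and MRPS28 were called.

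In post-stress tumours, none of the 73 members differed from no-stress tumours by edgeR. At an unadjusted p under 0.05, 4 were lower and 0 higher, against 7.54% and 7.63% of all tested human genes. DESeq2 called 1 member, MRPL23, against 177 lower and 327 higher of all tested human genes. By edgeR, 0.246% of all tested human genes were called lower and 0.596% higher (0.842% in either direction), 38 and 92 genes. That split became 62 lower and 59 higher with library totals in place of TMM factors. The median log2 fold change of the members was -0.02 (-0.01 for all genes), with 42 of 73 below 0, and it was above 0 without post-stress replicate 4 or 5 or no-stress replicate 1 or 4, and -0.09 without post-stress replicate 3. Apart from MRPL23, the smallest p belonged to MRPL4, with 28.4, 29.9, 32.8, 32.4 and 26.02 CPM in post-stress tumours, against 40.02, 36.9, 35.4, 31.8 and 36.9 CPM in no-stress tumours (log2 fold change -0.22, SE 0.09, adjusted p = 0.263 by edgeR). The 2 ranges overlapped. MRPL19 averaged 94.98 ± 6.35 CPM in post-stress and 111 ± 7.52 CPM in no-stress tumours (SD, n = 5 each; log2 fold change -0.18, SE 0.08, adjusted p = 0.300 by edgeR), and MRPS17, a small-subunit protein counted at 44 to 101 a library, 3.84 ± 0.531 and 5.32 ± 1.08 CPM (log2 fold change -0.41, SE 0.20, adjusted p = 0.329, edgeR). MRPL49 was the only member with every post-stress tumour below every no-stress tumour, against 2.88% of all tested genes, and none had the reverse order, against 1.03%; on TMM-scaled CPM no member had either order. The 4 with the smallest p above 0 were MRPL10 (log2 fold change 0.16, SE 0.10, adjusted p = 0.503 by edgeR), MRPL48 (0.15), MRPS30 (0.12) and MRPL18 (0.11). Both comparisons use the same no-stress tumours, so their fold changes are not independent.

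Between stress and post-stress tumours, no member was called by edgeR either, with 7 lower and 0 higher at an unadjusted p under 0.05, against 5.37% and 5.75% of all tested human genes. DESeq2 called 1, MRPL24, against 56 lower and 147 higher of all tested human genes. Of all tested human genes, 0.013% were called lower and 0.0259% higher by edgeR (0.0389% in either direction). MRPL24 had 71.2, 65.6, 66.4, 69.6 and 77.5 CPM in stress tumours and 90.3, 92.2, 97.96, 86.4 and 80.9 CPM in post-stress tumours, again without overlap (log2 fold change -0.37, SE 0.08, adjusted p = 0.1003 by edgeR). MRPS2 had 37.8, 37.7, 35.7, 38.8 and 35.5 CPM in stress tumours and 41.4, 45.00, 51.3, 41.5 and 40.8 CPM in post-stress tumours (log2 fold change -0.27, SE 0.09, adjusted p = 0.235 by edgeR). MRPL24, MRPS2 and MRPS16 were the 3 members in which every stress tumour lay below every post-stress tumour, 0.609% of all tested genes having that order, and none had the reverse order, against 1.19%. MRPS27 was -0.25 on the log2 scale (adjusted p = 0.245) and MRPL12 -0.30 (adjusted p = 0.323, edgeR). The 4 with the smallest p above 0, MRPL46, MRPL22, MRPS22 and MRPL42 had log2 fold changes of 0.18, 0.11, 0.11 and 0.10, none called. Stress and post-stress tumours overlapped for MRPL12, MRPL4 and MRPS28: MRPL12 had 23.3, 27.2, 23.5, 23.5 and 20.2 CPM and MRPS28 12.9, 13.9, 14.2, 9.94 and 11.5 CPM in the post-stress tumours. The members' median was -0.07 (0 for all genes to 2 decimals), with 48 of 73 below 0, and it came to 0 when post-stress replicate 3 was left out.

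MRPL23, which sits at the exit of the peptide tunnel, had the largest fold changes in both comparisons with no stress, and they rested on 2 libraries. It had 2.44, 1.21, 1.01, 1.43 and 0.999 CPM in stress tumours and 0.999, 0.953, 2.76, 2.10 and 1.29 CPM in post-stress tumours. In no-stress tumours it had 23.2, 26.2, 1.64, 0.989 and 1.51 CPM, with 319 and 380 counts in replicates 1 and 2 and 14 to 42 counts in the 13 other libraries. The stress difference was not called (log2 fold change -2.86, SE 0.88, adjusted p = 0.0559 by edgeR), but DESeq2's Wald test gave an adjusted p of 0.00726 for stress and 0.0361 for post-stress. Without no-stress replicates 1 and 2 the log2 fold change was 0.06 in stress tumours (adjusted p = 0.959) and 0.27 in post-stress tumours (adjusted p = 0.900, edgeR). MRPL23 was the only human gene that exceeded both 1 CPM and 4 times every other library in exactly these 2 libraries. It lies at chr11:1947278-1984522 on the plus strand, and 2.86% of its exon bases are shared with MRPL23-AS1, an antisense gene.

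Other genes of mitochondrial translation, mitochondrial transcription and their nuclear regulators were described with 8 lists. Not all belong to the translation apparatus: 13 of the genes encode proteins of the mitochondrial genome, and they gave 5 of the calls that follow. In stress against no-stress tumours, 14 of the 99 tested genes of the lists were lower (14.1%) and none higher by edgeR, against the 5.22% and 5.23% of all genes given above. At an unadjusted p under 0.05, 33 were lower and 1 higher, against 13.2% and 12.9% of all tested genes. DESeq2 called 18 lower and 1 higher (PNPT1), against 1029 lower and 1138 higher of 15435 human genes. Without no-stress replicates 1 and 2 edgeR called 3 lower, and without 1 and 5 it called 6 lower. Without 1 and 2 the 3 were 2 tRNA synthetases and 1 assembly gene (TRUB2), and without 1 and 5 the 6 were 1 tRNA synthetase (MARS2), 2 assembly genes (DHX30 and TRUB2), FASTKD5, MT-ATP6 and MT-ND3.

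Among the factors that run translation, 2 of 18 were lower, TUFM and GFM1, and neither was called without no-stress replicates 1 and 2 or without 1 and 5. TUFM, the elongation factor that brings aminoacyl-tRNA to the ribosome, had 191, 194, 191, 215 and 192 CPM in stress tumours, against 270.3, 245, 243, 239 and 245 CPM in no-stress tumours, with no overlap (log2 fold change -0.31, SE 0.07, adjusted p = 0.0105 by edgeR). Its post-stress values were 232, 261, 246, 233 and 228 CPM, also all above the stress tumours. GFM1, the translocase, averaged 99.95 ± 6.90 CPM in stress and 120.5 ± 7.23 CPM in no-stress tumours (SD, n = 5 each; log2 fold change -0.23, SE 0.07, adjusted p = 0.0426 by edgeR). Of the enzymes that charge mitochondrial tRNAs, 3 of 15 were lower and all 15 lay below 0, with a median log2 fold change of -0.18. MARS2, for methionine, averaged 13.5 ± 1.68 CPM in stress and 21.6 ± 2.63 CPM in no-stress tumours (log2 fold change -0.65, SE 0.13, adjusted p = 0.00555 by edgeR). CARS2, for cysteine, averaged 45.7 ± 7.10 CPM in stress and 59.9 ± 6.96 CPM in no-stress tumours (log2 fold change -0.36, SE 0.11, adjusted p = 0.0388 by edgeR).

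Of the genes for ribosome assembly and rRNA modification, 3 of 25 were lower. DHX30, an RNA helicase needed to assemble the particle, averaged 58.2 ± 1.81 CPM in stress and 72.3 ± 2.66 CPM in no-stress tumours (log2 fold change -0.28, SE 0.06, adjusted p = 0.00736 by edgeR). TRUB2, a pseudouridine synthase, and MPV17L2, which binds the large subunit, followed (-0.34 and -0.44 on the log2 scale, adjusted p = 0.0102 and 0.0437 by edgeR). Of 13 genes of mitochondrial transcription and RNA processing 1 was lower, FASTKD5, which processes mitochondrial messenger RNA (log2 fold change -0.51, SE 0.11, adjusted p = 0.00814 by edgeR). TFAM, which packages mitochondrial DNA and acts in its transcription, averaged 87.1 ± 4.80 CPM in stress and 103 ± 10.4 CPM in no-stress tumours and was not called (log2 fold change -0.21, SE 0.08, adjusted p = 0.0894 by edgeR). Nor were LRPPRC, which stabilises mitochondrial messenger RNA (-0.15), and the RNA polymerase POLRMT (-0.01). None of 8 nuclear regulators was called by edgeR or DESeq2, with 1 lower at an unadjusted p under 0.05. Among them, NRF1 had a log2 fold change of -0.02, GABPA of -0.06 and MYC of -0.03. None of the 5 ribosome subunits with other names was called by either tool, with 1 lower at an unadjusted p under 0.05. That one was DAP3, a small-subunit protein first known from cell death screens (log2 fold change -0.16, SE 0.07, adjusted p = 0.162 by edgeR).

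The products of the mitochondrial genome showed the highest share of calls, 5 of 13 protein genes, all lower in stress tumours, and all 13 lay below 0 with a median log2 fold change of -0.38. MT-ND3 of complex I averaged 715 ± 80.3 CPM in stress and 1064 ± 131 CPM in no-stress tumours (log2 fold change -0.54, SE 0.11, adjusted p = 0.00729 by edgeR). MT-ATP6, MT-ND2, MT-CO3 and MT-CYB had log2 fold changes between -0.56 and -0.51. Summed over the 13 genes, the level was 25451, 36047, 25785, 28551 and 23866 CPM in stress tumours and 37114, 36909, 33825, 36243 and 36243 CPM in no-stress tumours. Stress replicate 2 lay within the no-stress range and the other 4 stress tumours below it, whereas the summed level of the nuclear MRPL and MRPS genes was among the lowest in that same replicate. Without no-stress replicates 1 and 2 none of the 13 was called by edgeR, with a median of -0.40, and without 1 and 5 there were 2. Copies of mitochondrial sequence in the nuclear genome make these levels uncertain.

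The 2 mitochondrial ribosomal RNAs, the RNA part of the same particle, were not called in any comparison by edgeR or DESeq2. MT-RNR1, of the small subunit, averaged 812 ± 109 CPM in stress and 984 ± 101 CPM in no-stress tumours (log2 fold change -0.25, SE 0.12, adjusted p = 0.216 by edgeR). MT-RNR2, of the large subunit, averaged 4889 ± 739 CPM in stress and 5091 ± 1109 CPM in no-stress tumours (log2 fold change -0.03, SE 0.15, adjusted p = 0.933 by edgeR). At an unadjusted p under 0.05, 0 were lower and 0 higher in both comparisons with no stress, and 1 was lower in stress against post-stress. In post-stress against no stress and in stress against post-stress, none of the 99 genes of the lists was called by edgeR. At an unadjusted p under 0.05, 13 were lower and 0 higher in the first, against 7.54% and 7.63% of all tested genes. In the second, 16 were lower and 2 higher, against 5.37% and 5.75%. DESeq2 called 2 lower in the first, against 177 lower and 327 higher of 15435 human genes. In the second it called 3 lower and 1 higher, against 56 lower and 147 higher.

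For comparison, none of 82 tested genes for cytosolic ribosomal proteins was called in stress against no-stress tumours by edgeR or DESeq2, with 2 higher and 1 lower at an unadjusted p under 0.05. Their median log2 fold change was 0.08, and -0.01 without no-stress replicates 1 and 2. Of 76 nuclear genes of the respiratory chain 3 were lower, with a median of -0.05, and 0 were called without no-stress replicates 1 and 2 and 1 without 1 and 5. These medians were not tested against that of the mitochondrial ribosomal protein genes.

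**Figure D5:**
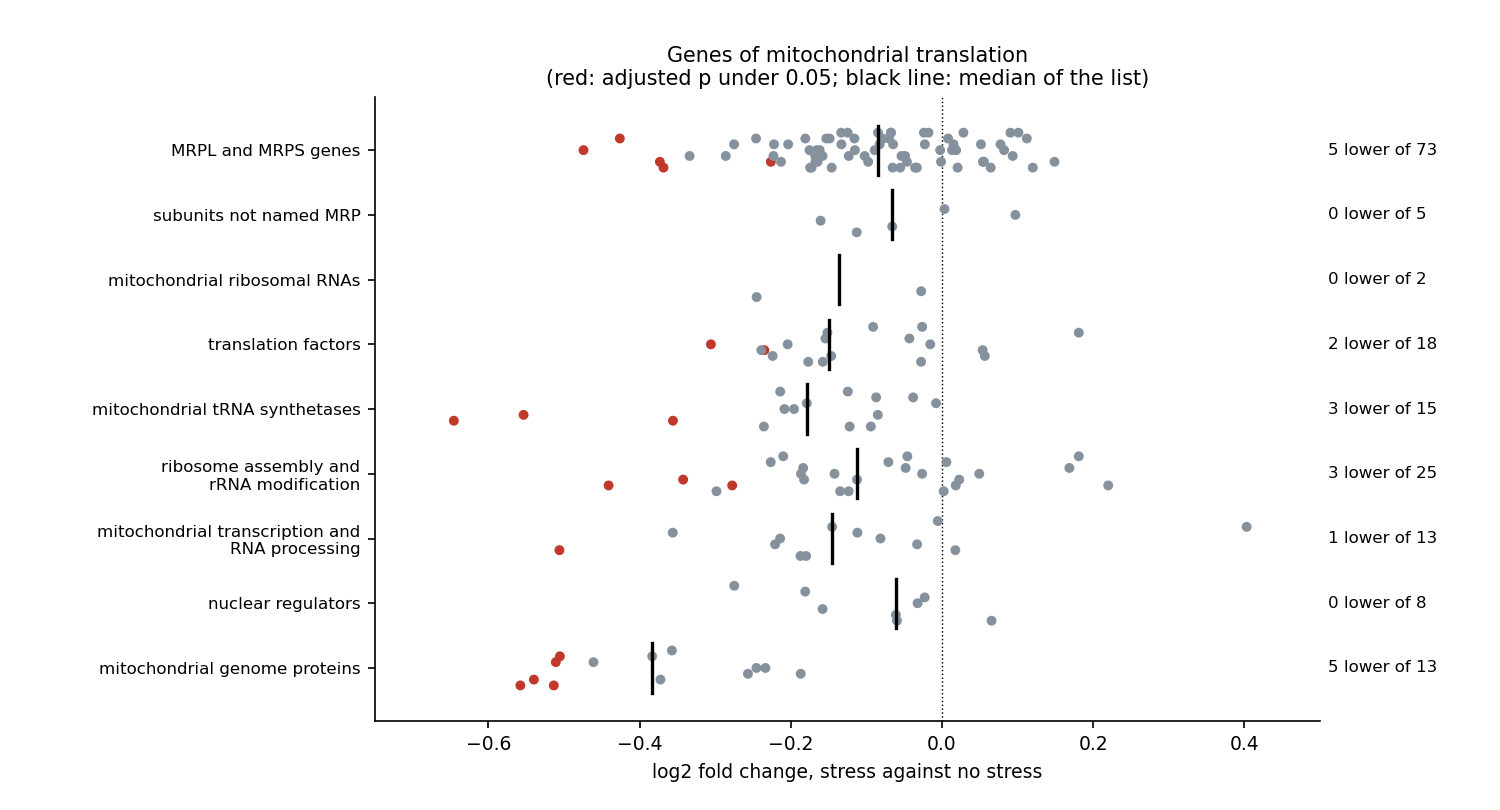
Log2 fold change in stress against no-stress tumours of the tested MRPL and MRPS genes (MRPL23, at -2.86, is off the scale) and of 8 lists of other genes. The lists cover mitochondrial translation and transcription, nuclear regulators and the protein genes of the mitochondrial genome. Each point is 1 gene, red at an adjusted p under 0.05, and the black line is the list's median. The number called lower and the number tested stand at the right, 5 of 73 for the MRPL and MRPS genes; the 13 protein genes of the mitochondrial genome all lie below 0.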

How the data were processed

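RNA of 15 tumours was analysed from a deposited table of raw gene counts. Per the labels, TRIzol was used for extraction and a Fast RNA-seq kit for the libraries. Per the submitters' processing notes, the authors used Trimmomatic 0.39, HISAT2 2.2.1 and featureCounts 2.0.6 with the builds hg38 and mm10; the notes also name DESeq2 and edgeR. Strandedness, annotation release and the assignment of shared or multiply mapped reads are parameters not given in the sources used here. Reads of antisense genes and near-identical copies therefore cannot be told apart, and mouse reads of conserved sequence can lie on human genes. Groups and replicate numbers came from the sample titles, and no column was left unmapped.

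Human counts were tested with edgeR 4.0.16 (R 4.3.3, limma 3.58.1): filterByExpr, which kept 15435 genes with 99.8% of human counts, TMM factors (0.940 to 1.04), and 1 quasi-likelihood fit with robust dispersions over all 15 libraries (biological coefficient of variation 0.187). P-values were adjusted after Benjamini and Hochberg over all tested genes, and an adjusted p under 0.05 was called. The SE is the size of the log2 fold change divided by the square root of F. Printed CPM are not TMM-scaled. Symbols came from a reference table of gene names (60507 of 60649 human identifiers), and exon lengths, coordinates and overlaps from GENCODE 29. Floors (3 counts) and p-values cover counting error and the spread between these tumours only.

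The genes described and the lists of other genes were chosen with earlier results of these data known. Named genes are those called in a comparison, up to 4 per direction and comparison with the smallest p, the 5 with the highest and the lowest levels per length, those not tested, and the called genes of the lists with a few regulators. The members with no overlap between groups, MRPL23, the libraries left out in pairs and the TMM-scaled subunit sums and overlaps were chosen after their values were seen. The labels name no pairing of tumours by replicate number, and none was seen in the values. Alternatives were DESeq2 size factors, library totals, DESeq2's Wald test (1.42.0), limma-voom, 2 other filters, only the groups compared, the replicate block, the mouse share as covariate, and each library left out. Values of 1 called gene of the lists are not reported here. The procedure was also run on simulated data in which genes changed by more than the called members did. It therefore does not show how well changes of the members' size are found.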

Additional observations from a re-analysis of the deposited data

Results flagged for a closer look

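In 2 of the 72 groups of 5 tumours examined, those of 23 named genes and of the summed level, 1 tumour lay far from the other 4, by Dixon's test at the 95% level (critical value 0.71). Chance alone gives about 1 in 20 groups. MRPS34 had 86.3 CPM in stress replicate 1, against 73.9 CPM in the nearest of the other stress tumours. Without that tumour, MRPS34 was called lower in stress against no-stress tumours. MRPL22 had 22.3 CPM in no-stress replicate 3, against 25.7 CPM in the nearest of the other no-stress tumours.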

How the results depend on the processing

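The count of members lower in stress against no-stress tumours was 5. It was 9 with library totals in place of TMM factors, 3 with no filter, 2 with the replicate block and 8 by DESeq2's Wald test. The calls over all human genes changed too. They were 986 lower and 664 higher with library totals, and 581 lower and 619 higher of 35033 with no filter. DESeq2's Wald test called 1029 lower and 1138 higher, against 806 and 807 in the main fit. The count of members ranged from 2 to 6 when single libraries were left out, and was 1 without no-stress replicates 1 and 2 and 1 without 1 and 5, both settings chosen after seeing the data. MRPL24 was called in every one of these settings (adjusted p 0.00188 to 0.0496, edgeR, limma or DESeq2). DESeq2 called 1 member lower in post-stress against no-stress tumours and 1 in stress against post-stress tumours, where edgeR called 0. MRPL23 reversed to 0.062 (stress) and 0.27 (post-stress) against no stress without no-stress replicates 1 and 2, and in stress against post-stress tumours it ranged from -0.50 to 0.10 over single libraries left out, above 0 without post-stress replicate 3. With all counts, mouse included, as the total, the summed level averaged 2683 CPM in stress, 2931 CPM in post-stress and 2913 CPM in no-stress tumours, so that post-stress and no-stress tumours changed order. The causes were not tested.

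No pairing of tumours by replicate number was seen in the values: 1 of 15 same-numbered pairs had a correlation of deviations over 0.1 (range -0.191 to 0.124), and 0 libraries correlated best with their own number in both other groups. Such correlations cannot exclude that same-numbered tumours were handled together. With the replicate block, all human genes called in stress against no-stress tumours were 546 higher and 444 lower, against 807 and 806. Counts of low genes such as MRPS17 (44 to 101 a library) limit what could be called there.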
